A study of Mus musculus with 4 samples.

Results

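The 5S ribosomal RNA and the other transcripts of RNA polymerase III were followed in 4 libraries of mouse liver RNA that had been enriched for capped 5’-ends. The members were the rows of the gene count tables whose symbol starts with n-R5s, the name of single 5S gene copies, or is 5S_rRNA, 7SK, Y_RNA or U6. These were 184 of 33924 rows, 180 of them n-R5s rows and the other 4 rows each the sum of a family of loci. For 4 further symbols (Metazoa_SRP, Rmrp, Rpph1 and Rn7sk) the tables analysed here hold no row under that name. The libraries came from the livers of male C57BL/6 mice (the Rj substrain) of 3, 9, 15 and 21 months, untreated and without any engineered allele, and each held the pooled RNA of 24 mice, with 4 mice taken at each of 6 times of the day. As each age is represented by a single library, no value has a replicate error and every interval covers counting error only. All ratios to the 3 month library share that library, which is the youngest of the 4 age classes.

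RNA polymerase III makes short, abundant RNAs that are not translated. 5S rRNA is a part of the large ribosomal subunit, U6 is a part of the spliceosome, 7SK holds the transcription elongation factor P-TEFb in an inactive complex, and Y RNAs bind the Ro60 protein. None of them receives the 7-methylguanosine cap of messenger RNA. They begin with a 5’-triphosphate, which on U6 and 7SK carries a methyl group, whereas the 5’-phosphate-dependent RNase used to remove uncapped RNA from the pools acts on 5’-monophosphates. 5S genes lie in tandem arrays with many dispersed copies in the genome, and their promoter is inside the gene: TFIIIA binds the A box, the intermediate element and the C box.

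The gene counts per library were 955934, 958586, 525772 and 735962 at 3, 9, 15 and 21 months. They made up 6.67% to 8.42% of the alignment records, while 72.2% to 76.7% of the records were not unique and were not counted on any gene. A count of 0 allows a level of up to 3 reads, which is 3.13 to 5.71 reads in 1000000 gene counts (cpm). All 8 hepatocyte markers had reads, with a summed level of 96898 to 106917 cpm. The level of the 8 leukocyte markers was 519.9 to 686.2 cpm, that of the 6 endothelial and stellate markers 264.4 to 346.3 cpm and that of the 5 red cell markers 1376 to 2365 cpm, highest at 9 months. Of the 3 cholangiocyte markers 2 had reads, at 1.04 to 4.18 cpm, and the third was at 0. In such bulk RNA, fewer cells of a type and less RNA per cell cannot be told apart.

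Reads of 35 bases were counted only where their alignment was unique, so that the sequence of a 5S copy sets whether it can receive a read. The most common 5S sequence was 119 bases long and was shared by 25 of the 180 annotated copies, and 149 distinct sequences were found among the 180 in the NCBIM37 (mm9) genome.

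The copy n-R5s136 (chr8:126123761-126123879, minus strand) differs from the common sequence by 1 base, which lies within the first 35 bases. n-R5s115 (chr8:126088186-126088304, minus strand) has 2 substitutions, of which 1 is in the first 35 bases, and n-R5s109 (chr8:126077960-126078078, minus strand) has 3, all of them further inside. n-R5s2 (chrX:5684009-5684127, plus strand) does not lie on chromosome 8 and has 4 substitutions, 1 of them in the first 35 bases. In contrast, n-R5s175 (chr5:119747254-119747370, plus strand) has only 2 mismatches in its first 35 bases but an identity of 69.9% over its whole length. n-R5s193 (chr4:149191841-149191949, plus strand) is the reverse case for reads. Its first 35 bases equal those of the common sequence, which match the genome 44 times, and the first of its windows that matches once starts at base 57. n-R5s211 (chr1:46431042-46431160, plus strand) has an identity of 93.3%, and all of its 85 windows match once.

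Reads were found on 39 of the 180 n-R5s rows, 7182 in all, and 141 rows were at 0. In the 4 age classes the number of n-R5s rows with reads was 32, 29, 26 and 31. A tandem array of 41 copies spans 83261 bases of chromosome 8 (chr8:126062686-126145946, minus strand, median spacing 1703 bases) inside an intron of Gm20388. This gene of the opposite strand had no reads in any library. Exactly 4 array copies hold a window of 35 bases that matches the genome once, n-R5s109, n-R5s115, n-R5s127 and n-R5s136. They had 103, 828, 50 and 4079 reads over the 4 libraries, together 70.5% of all reads on n-R5s rows. The 37 array copies without such a window were all at 0, as no read can be assigned to them alone. Exactly matching reads of the other 37 copies are therefore not in the counts. With 1 mismatch allowed, no window of n-R5s109, n-R5s115 or n-R5s136 matches once.

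**Figure D1:**
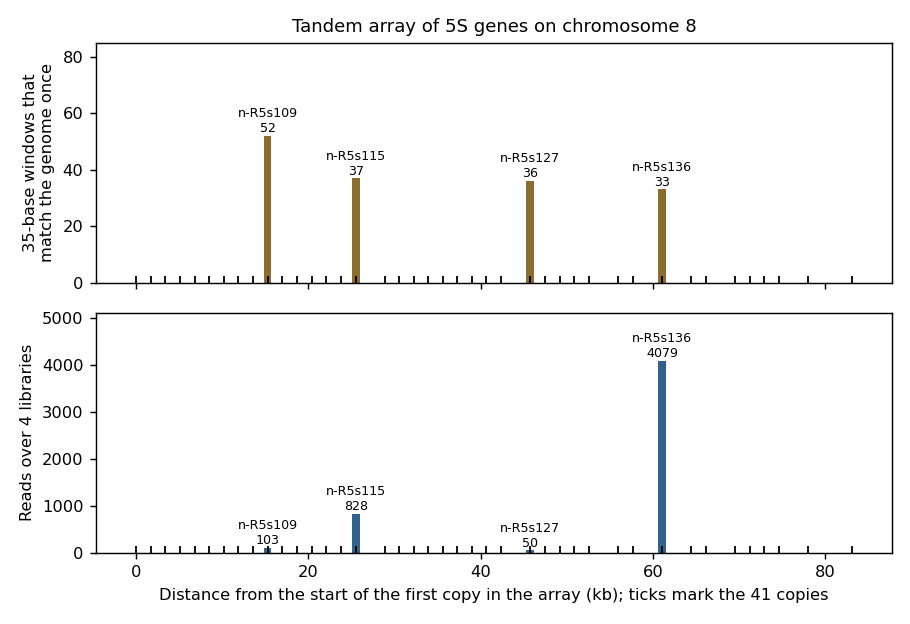
The 41 copies of the 5S array on chromosome 8 by their distance from the first copy in kb. The upper bars give the number of 35-base windows that match the genome once and the lower bars the reads summed over the 4 libraries, and both are above 0 at the same 4 copies, with 4079 reads at n-R5s136.

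Outside the array, each of the 139 copies holds a window that matches once, but only 35 of them had reads (2122 in all) and 104 were at 0. The copies with reads were closer to the common sequence, with a median identity of 86.6% against 73.6% for those at 0. This is better seen in the first 35 bases, where a read from the 5’-end of the RNA would lie. Among the 139 copies of the whole genome whose first 35 bases match once, 3 differ from the common sequence there by 1 base (n-R5s136, n-R5s115 and n-R5s2), and these 3 had 5304 reads. All 8 copies with 2 mismatches had reads as well, 1022 in all, of which 872 were on n-R5s175. With 3 to 5 mismatches, 10 of 23 copies had reads (332 in all), and with more than 5 mismatches 15 of 105 (245 in all). These mismatches were counted position by position without gaps, so that an inserted or missing base can raise their number. n-R5s156, with 28 mismatches there and 66 reads, has 6 substitutions and 14 gap positions over its whole length. High numbers are therefore no measure of the distance in sequence. Copies with the same number of mismatches in the first 35 bases differed in their reads. n-R5s194, with 2 mismatches there and an identity of 95.8% over its whole length, had 44 reads. n-R5s175, also with 2 mismatches there but an identity of 69.9%, had 872, the second most of all n-R5s rows. What sets the number of reads was not tested.

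**Figure D2:**
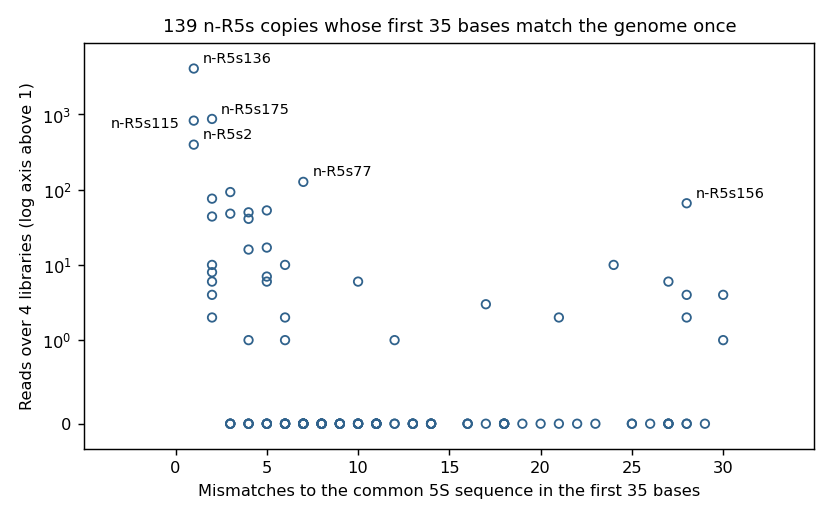
Each circle is 1 of the 139 n-R5s copies whose first 35 bases match the genome once, by its mismatches to the common sequence in these bases (counted without gaps) and its reads over the 4 libraries (log axis above 1). The 11 copies with 1 or 2 mismatches all have reads, while most copies further to the right are at 0.

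Mapping was done by the authors with roughly 1 mismatch allowed. The first 35 bases of n-R5s136 and of n-R5s115 each have 44 further matches in the genome with 1 mismatch, and those of n-R5s2 have 45. A read of the common 5S RNA with a misread base at the distinguishing position and a read of the copy itself cannot be told apart in the counts. n-R5s175, n-R5s209 and n-R5s77, on the other hand, have no further match with 1 mismatch. By the type given in the RefSeq table for GRCm38, reads were found on 12 of 51 copies listed as rRNA, on 9 of 18 listed as pseudogenes and on 18 of 111 copies not listed. Of the 39 rRNA copies at 0, 37 are the array copies without a window that matches once, which could not receive a read. The shares of the 3 types are therefore not comparable. The 6 copies that overlap an exon of another gene were all at 0, as were 104 of all 139 copies outside the array.

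n-R5s136 had 1550, 814, 550 and 1165 reads at 3, 9, 15 and 21 months, or 1621, 849.2, 1046 and 1583 cpm. The 2 middle ages were the low ones, and the youngest and oldest library were nearly equal. Its ratio to 3 months was 0.524 at 9 months (95% interval from 0.481 to 0.570), 0.645 at 15 months (0.584 to 0.712) and 0.976 at 21 months (0.904 to 1.05). The 5S rows together had 2637, 1519, 976 and 2055 reads, or 2759, 1585, 1856 and 2792 cpm. Their level was likewise lower in the 9 month library, with a ratio of 0.574 (0.539 to 0.612), and in the 15 month library, with 0.673 (0.625 to 0.724). At 21 months the ratio was 1.01 (0.955 to 1.07), or 0.888 relative to all alignment records, and 21 months over 15 months it was 1.504 (1.39 to 1.62). Without n-R5s136 the ratios to 3 months were 0.647, 0.713 and 1.06, so that the low middle ages did not rest on this row alone. n-R5s136 made up 58.8%, 53.6%, 56.4% and 56.7% of the 5S reads in the order of age.

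**Figure D3:**
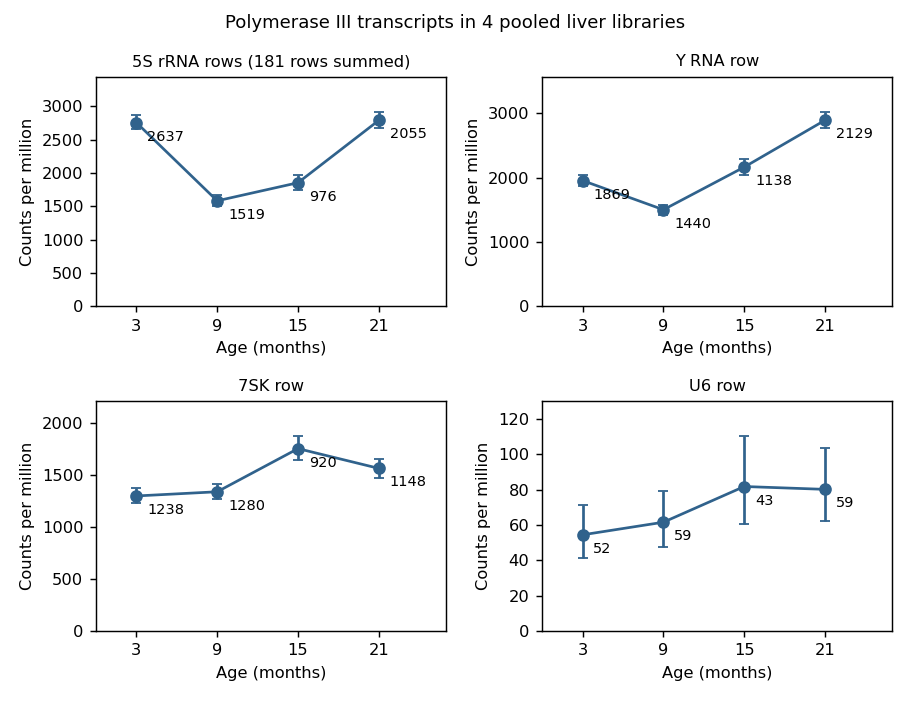
Level in cpm of the 181 summed 5S rows and of the Y RNA, 7SK and U6 rows by age in months, each point 1 pooled library with its read count beside it and a 95% Wilson interval for counting error. The 5S level is lowest at 9 months (1585 cpm), the Y RNA level is highest at 21 months (2893 cpm), and the 7SK level is highest at 15 months (1750 cpm).

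The single copies did not all follow this order of ages. n-R5s115 had 270, 208, 133 and 217 reads, and its level stayed within 217.0 to 294.9 cpm, with a ratio of 0.768 (0.638 to 0.924) at 9 months and intervals including 1 at 15 and 21 months. n-R5s2 had 150, 95, 48 and 104 reads, and was low at 9 and 15 months with ratios of 0.632 (0.483 to 0.822) and 0.582 (0.411 to 0.810). n-R5s175 had 258, 178, 143 and 293 reads and was the only one of the 4 highest rows with an interval above 1 at 21 months, at a ratio of 1.48 (1.24 to 1.75). Relative to n-R5s136 in the same libraries, the ratio of n-R5s175 was 1.31 (1.06 to 1.63) at 9 months, 1.56 (1.24 to 1.97) at 15 months and 1.51 (1.25 to 1.82) at 21 months. The corresponding value of n-R5s115 was 1.47 (1.19 to 1.80) at 9 months and 1.07 (0.876 to 1.30) at 21 months, and for n-R5s2 all 3 intervals included 1.

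Several rows with fewer reads had larger ratios between ages. n-R5s193 had 69, 20, 18 and 31 reads and n-R5s109 had 50, 16, 15 and 22, both highest at 3 months. n-R5s77 (chr10:77776910-77777028) had 51, 10, 8 and 58 reads, high in the youngest and the oldest library. It lies on the opposite strand in an intron of Agpat3, an acyltransferase gene that itself had 177, 119, 70 and 111 reads. n-R5s211 had 56, 10, 1 and 26 reads, with a ratio of 0.178 (0.0810 to 0.352) at 9 months and of 0.0325 at 15 months, the latter resting on 1 read and with an interval from 0.000808 to 0.188. n-R5s209 (chr1:27015948-27016066), listed as a pseudogene in RefSeq, went the other way with 11, 52, 4 and 9 reads. It was high in the 9 month library only, by a ratio of 4.71 (2.43 to 10.02) to 3 months and of 9.00 (4.60 to 19.2) relative to n-R5s136. n-R5s156, on chromosome 7, had 31, 13, 5 and 17 reads. The remaining 5 of the 15 highest n-R5s rows (n-R5s197, n-R5s127, n-R5s195, n-R5s194 and n-R5s210) had 6 to 21 reads per library and ratios to 3 months between 0.433 and 2.76. Of these, n-R5s197, n-R5s127 and n-R5s195 varied in clr by less than counting alone gives.

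**Figure D4:**
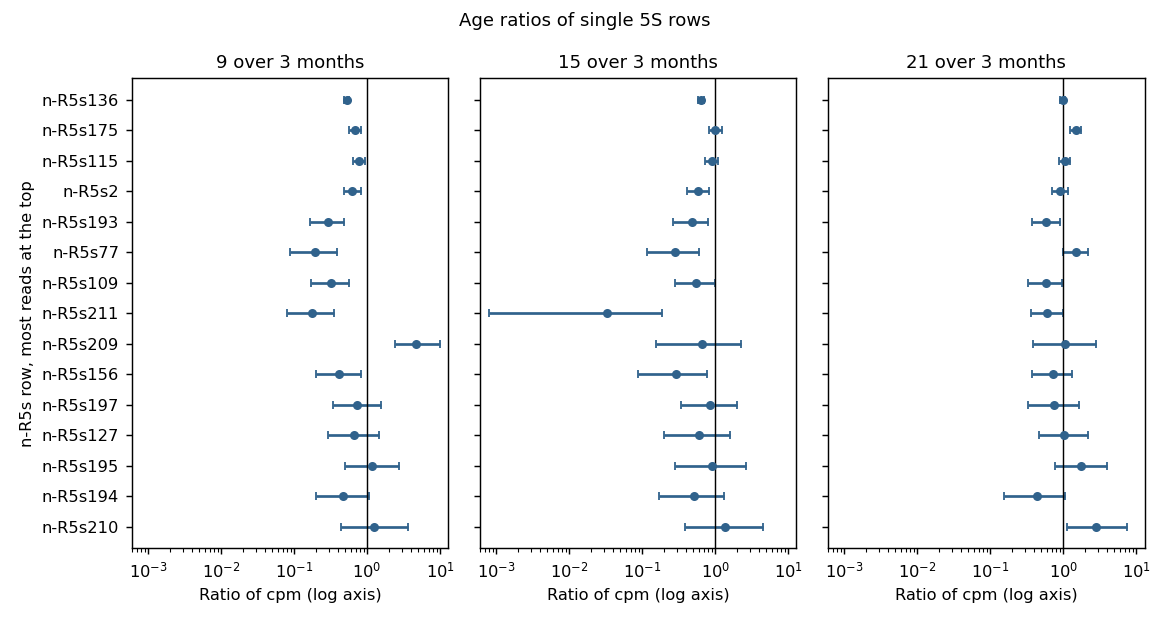
Ratio of the cpm at 9, 15 and 21 months to that at 3 months (log axis) for the 15 n-R5s rows with the most reads, with exact 95% intervals for counting error and a line at 1. Of the 15 ratios 12 lie below 1 at 9 months, 13 at 15 months and 8 at 21 months, and n-R5s209 lies far to the right at 9 months. The share of all genes below 1 was not calculated.

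Of these 15 rows, 12 had a ratio below 1 at 9 months, 9 of them with an interval below 1, and 3 were above 1, of which n-R5s209 alone had an interval above 1. At 15 months 13 ratios were below 1, 7 with their interval, and the 2 ratios above 1 had intervals including 1. At 21 months 8 were below and 7 above 1, with 3 and 2 intervals apart from 1. The median log2 ratio of all genes was -0.064 at 9 months, 0.0045 at 15 months and -0.0012 at 21 months. Shares of all genes below 1, or with an interval apart from 1, were not calculated, so that these counts describe the 15 rows only. With regard to changes of at least 2-fold among rows with at least 20 reads in the pair of libraries, 6 of 18 members were lower at 9 months (n-R5s77, n-R5s109, n-R5s156, n-R5s193, n-R5s194 and n-R5s211), against 10.6% of all genes, and 1 was higher (n-R5s209), against 7.2%. At 15 months 4 of 15 members were lower (n-R5s77, n-R5s156, n-R5s193 and n-R5s211), against 10.4%, and 0 were higher, against 9.65%. The minimum is on the sum of the pair, and these 4 rows had 8, 5, 18 and 1 reads at 15 months. They passed it through the 3 month library, where they were high. At 9 months the same held for n-R5s77, n-R5s109, n-R5s156, n-R5s194 and n-R5s211, while n-R5s209 passed through the 9 month library. The numbers of members past 2-fold are therefore a description and not a test. At 21 months 2 of 19 were lower (n-R5s28 and n-R5s194), against 10.2%, and 1 was higher (n-R5s210, with 8 and 17 reads), against 8.96%. n-R5s28, with 16 and 5 reads, lies just inside the minimum of 20 reads and was named because of this count. The members past 2-fold were all n-R5s rows, which are related in sequence and are no replicates of each other, while Y_RNA, 7SK and U6 were among the members compared at each age.

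The row 5S_rRNA stands for 129 further annotated copies, 122 of which have first 35 bases that match once, yet it had 0, 1, 0 and 4 reads. Its level was therefore near or under the floor in each library, and no ratio is given for it.

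Y RNA had 1869, 1440, 1138 and 2129 reads, or 1955, 1502, 2164 and 2893 cpm. It was lowest at 9 months and highest at 21 months, and unlike for 5S the 15 month library was not below the 3 month library. The ratios to 3 months were 0.768 (0.717 to 0.823), 1.11 (1.03 to 1.19) and 1.48 (1.39 to 1.58) at 9, 15 and 21 months. Relative to all alignment records in place of gene counts, the value at 15 months turned to 0.878, while the others kept their side of 1. The Y_RNA symbol covers 24 annotated copies, which are all distinct in their first 35 bases, and which of them gave the reads cannot be told from the summed count. On chromosome 6, where the RefSeq table places Rny1 and Rny3 next to each other, a pair of annotated mm9 copies lies on opposite strands. This pair is shown, without capitals, as an example of the family, the first on the plus strand (chr6:47731623-47731724) and the second on the minus strand (chr6:47738068-47738179).
Y_RNA plus strand copy: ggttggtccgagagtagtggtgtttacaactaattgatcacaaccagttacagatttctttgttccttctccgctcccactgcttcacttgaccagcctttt
Y_RNA minus strand copy: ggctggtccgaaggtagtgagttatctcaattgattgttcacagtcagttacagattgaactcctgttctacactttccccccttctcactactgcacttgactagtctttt

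7SK had 1238, 1280, 920 and 1148 reads, or 1295, 1335, 1750 and 1560 cpm, and varied least among the 3 abundant kinds of member. The ratio was 1.03 (0.953 to 1.12) at 9 months, 1.35 (1.24 to 1.47) at 15 months and 1.20 (1.11 to 1.31) at 21 months. Relative to all alignment records the value at 9 months was 0.908. The symbol covers 331 annotated copies. U6 had 52, 59, 43 and 59 reads on a symbol with 936 annotated copies, or 54.4, 61.5, 81.8 and 80.2 cpm. Its ratios of 1.13, 1.503 and 1.47 had intervals that included 1 (for example 0.998 to 2.18 at 21 months), so that a difference between ages was not detectable at this depth.

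The course of the 5S level was set against that of the other members. The ratio of 5S to 3 months was 0.557 times that of 7SK at 9 months (0.503 to 0.617), 0.498 times at 15 months (0.444 to 0.558) and 0.840 times at 21 months (0.760 to 0.929). Against Y RNA the values were 0.748 (0.680 to 0.822), 0.608 (0.547 to 0.675) and 0.684 (0.628 to 0.745). Y RNA itself was at 0.745 (0.671 to 0.828), 0.819 (0.731 to 0.919) and 1.23 (1.11 to 1.36) of the ratio of 7SK. None of these intervals includes 1. Against U6, the values of 5S were 0.508 (0.341 to 0.754), 0.448 (0.291 to 0.692) and 0.687 (0.462 to 1.02), the last with an interval that includes 1. For U6 against 7SK all 3 intervals included 1.

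Rows of the same polymerase outside the member rule were set beside the members after the counts had been seen. RNase_MRP, the RNA of an enzyme that processes the ribosomal RNA precursor, had 1521, 631, 442 and 979 reads. It was low at 9 and 15 months like 5S, with ratios of 0.414 (0.376 to 0.454), 0.528 (0.474 to 0.588) and 0.836 (0.771 to 0.907). Of its 2 annotated copies, 1 (chr4:43505660-43505930) overlaps an exon of Ccdc107, and the effect of this overlap on the reads of the row was not tested. The ratio of 5S was still 1.39, 1.27 and 1.21 times that of RNase_MRP, with intervals above 1 at each age. Vault RNA, a part of the vault particle, had 2174, 1772, 1734 and 1749 reads, with ratios of 0.813 (0.763 to 0.866), 1.45 and 1.04. Its level was lowest at 9 months and highest at 15 months. U6atac, the U6 counterpart of the minor spliceosome, had 139, 177, 133 and 150 reads and ratios of 1.27, 1.74 and 1.40. RNaseP_nuc is named for the RNA of the enzyme that trims the 5’-ends of transfer RNAs and sums 18 annotated copies. It had 1, 4, 0 and 0 reads. As Rpph1 has no row under that name, these reads do not give the level of the RNase P RNA itself. Leaving RNaseP_nuc aside, the rows of RNA polymerase III thus had no order of ages in common.

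**Figure D5:**
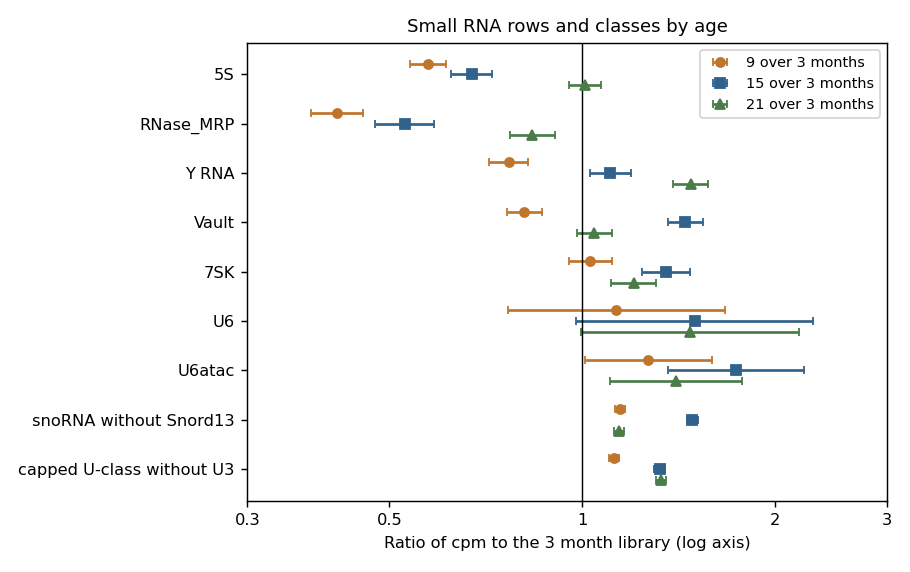
Ratio of the cpm at 9, 15 and 21 months to that at 3 months (log axis) for 5S and other small RNA rows and classes, with exact 95% intervals for counting error and a line at 1. At 9 months the ratios of RNase_MRP (0.414) and 5S (0.574) lie furthest to the left, and those of the capped and the small nucleolar RNAs all lie to the right of 1.

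Small RNAs with another 5’-end served for comparison. The capped U-class small RNAs made by RNA polymerase II (9 rows without U3) had ratios of 1.12, 1.32 and 1.33 to 3 months. U3 was set apart after its values had been seen, because with it the value at 9 months was 1.97 and the others were 1.08 and 1.31. The ratio of 5S was 0.512 times that of this capped class at 9 months (0.479 to 0.547), 0.509 times at 15 months (0.471 to 0.549) and 0.763 times at 21 months (0.718 to 0.811). For 7SK the same values were 0.918, 1.02 and 0.908, closer to 1 throughout. The small nucleolar RNAs, most of which are cut from introns and have no cap (227 rows without Snord13, the row with the most reads, set apart in the same way), had ratios of 1.15, 1.49 and 1.14. The ratio of 5S was 0.501 times (0.469 to 0.535) theirs at 9 months and 0.453 times (0.419 to 0.489) at 15 months. 5S and this mostly uncapped group thus had different courses. With Snord13 the ratios of the small nucleolar RNAs to 3 months were 1.37, 1.65 and 1.14. The 37 mitochondrial rows, which are not all small RNAs, were listed at 0 in every library, and the reason for this was not tested. Differences in the RNase digestion between the pools were not tested, as no spiked uncapped RNA was among the data analysed here.

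A linear trend with age was then calculated over all 4 libraries with edgeR's quasi-likelihood test. Of the 184 members, 10 passed the filter on low counts, and 0 were called at an adjusted p of 0.05, where 0.167% of the 3599 genes tested were called, 0.0834% rising and 0.0834% falling. The lowest of their adjusted p-values in edgeR was 0.839. DESeq2 called 0 members too. At an unadjusted p under 0.05 edgeR had 1 of the 10 members, Y_RNA, against 5.86% of all genes. Its slope corresponded to 0.63 (SE 0.32) on the log2 scale from 3 to 21 months, with an adjusted p of 0.839 in edgeR. n-R5s175 had the same slope of 0.63 (SE 0.34) with an adjusted p of 0.867 in edgeR. The slope of n-R5s136 was 0.01 (SE 0.30). A straight line is flat for a level that is low at the 2 middle ages, so that this test does not address the course of 5S described above. The slopes depended on single libraries. Without the 3 month library they were 1.33 for Y_RNA, 1.56 for n-R5s175 and 1.26 for n-R5s136, and without the 21 month library 0.19, -0.03 and -0.99.

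The centered log-ratio (clr) of the study relates each gene to the geometric mean of the library. Of the 8704 genes with reads in every library 24 were members, and 11 of these had a variance of clr over the 4 ages above the median of all genes (0.160). The median variance of the members was 0.151. Without the 15 month library it was 0.214 against 0.137 for all genes, with 15 of 27 members above the median, and with at least 10 reads in every library 0.0774 against 0.0568, with 6 of 9 above. 7SK was among the most stable, with a variance of 0.00924, at percentile 3.31 of all genes. n-R5s115 had 0.0175 and U6 0.0274. At the other end n-R5s211 had 2.43, at percentile 99.99, followed by n-R5s77 with 0.949 and n-R5s209 with 0.810. Y RNA and n-R5s136 were in between with 0.0618 and 0.102. Of the 24 members 18 varied more than counting alone gives, compared with 72.2% of all genes.

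The genes that make and bind these RNAs had few reads. Of the 13 genes for subunits of RNA polymerase III, 1 passed the filter of the trend, of 17 initiation factors and regulators 2, and of 35 protein partners 4. None was called in edgeR or in DESeq2. The median slopes were 0.11, -0.01 and -0.34 on the log2 scale, compared with -0.000342 for all genes tested, and rest on these few genes. Polr1d, a subunit shared by RNA polymerases I and III, had 73, 107, 54 and 65 reads, and Polr3c 12, 21, 4 and 10. Of the subunits of TFIIIC, an initiation factor of RNA polymerase III, Gtf3c1 had 26, 30, 23 and 22 reads and Gtf3c2 had 29, 35, 12 and 21. Rpl5, a ribosomal protein that binds 5S rRNA, had 132, 229, 102 and 130 reads, or 138.1, 238.9, 194.0 and 176.6 cpm, and was highest at 9 months. Rpl11, another ribosomal protein among the partners, had 21, 10, 5 and 8 reads and was highest at 3 months. Srp72, a protein of the signal recognition particle, had 41, 34, 12 and 36 reads.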

How the data were processed

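RNA of 24 mouse livers per age class was pooled by the authors, and 1 library was made for each of 3, 9, 15 and 21 months. The methods of the study name a NucleoSpin kit for the extraction and the labels a TRIZOL extraction with LiCl precipitation. Uncapped RNA was digested with 5’-phosphate-dependent RNase, the cap was cleaved, linkers were added and 35 base reads were sequenced on 1 SOLiD lane. Reads were mapped to mm9 with the CLC Genomic workbench, with roughly 1 mismatch allowed. The deposited files hold raw counts of reads per gene symbol made by the authors. The submitters' processing notes name HTSeq, without a version. The annotation and the strand setting of the counting are not given in the sources used here. The special rows, for records outside any gene, ambiguous or not unique (91.6% to 93.3% of the records), were left out of library sizes and tests.

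Levels are reads in 1000000 gene counts (525772 to 958586 gene counts per library). Wilson 95% intervals were calculated for shares, exact Clopper-Pearson intervals for ratios of counts, and exact conditional (Fisher) intervals for the ratio of 2 ratios. They cover counting error only. A member was called with a ratio of at least 2-fold, over rows with at least 20 reads in the pair. The age trend was tested with edgeR 4.0.16 (quasi-likelihood, TMM, filterByExpr without groups, 2 residual degrees of freedom) with Benjamini-Hochberg adjustment over all genes tested, and with DESeq2 1.42.0 as the alternative, in R 4.3.3. Where labels do not tell separate cultures or animals apart, as in these pools, p-values measure only the spread between libraries around the line. The clr used natural logarithms and a variance with divisor 3. Python 3.11.15 with numpy 2.4.6, pandas 2.3.3 and scipy 1.17.1 served for the rest. The scripts were tested on simulated data.

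Gene positions came from the GENCODE M1 annotation of NCBIM37, which held all 180 n-R5s symbols, and every 35-base window of each copy was searched in that genome. The sequences of the 5S copies are not reported here. Types and neighbours came from RefSeq (GRCm38, 69 n-R5s symbols matched), whose coordinates were not used.

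The members, gene lists and comparison classes were chosen with earlier results of these data known. Named genes were all members outside the n-R5s rows, the 15 n-R5s rows with the most reads, members called in the trend, and the 2 genes of each list with the most reads when fewer than 4 were called. n-R5s28, the rows RNase_MRP, RNaseP_nuc, Vault and U6atac, U3, Snord13, Rpl11 and the genes around members and RNase_MRP were named after their values had been seen. The alternatives were other scale factors, other minimum counts, other pseudocounts, all alignment records as denominator, DESeq2, and leaving out libraries or the highest rows.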

Additional observations from a re-analysis of the deposited data

How the results depend on the processing

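No paired analysis was possible because each age has 1 pooled library. Of the values recomputed under other settings, 87 that answer a comparison kept within their limits and 20, given here, did not, while for single rows 207 kept their direction or limits and 8 slopes of the age trend, none of them called, reversed. These slopes were, on the log2 scale, 1.41 for n-R5s193, 1.14 for n-R5s109 and 0.68 for n-R5s2 without the 3 month library, -0.0317 for n-R5s175, -0.28 for n-R5s115 and -0.99 for n-R5s136 without the 21 month library, and for n-R5s136 also -0.16 without the 9 month library and -0.0196 without the filter on low counts. With all alignment records as the denominator, 5S was at 0.506, 0.534 and 0.888 of the 3 month level at 9, 15 and 21 months, Y RNA at 0.677, 0.878 and 1.30, and 7SK at 0.908, 1.07 and 1.06, so that 5S at 21 months, Y RNA at 15 months and 7SK at 9 months turned below 1. With the geometric mean of all genes, which shifts the median of all genes by -0.12 on the log2 scale at 15 months, the ratio at 15 months was 0.615 for 5S, 1.01 for Y RNA and 1.24 for 7SK. Without its highest row, 5S was at 0.647 at 9 months. Without its 3 highest rows, a setting chosen after seeing the data, it was at 0.488 at 15 months and 0.883 at 21 months. With at least 50 reads in the pair, 0 members were 2-fold higher and 0 were 2-fold lower at 21 months. Of all genes, the age trend called 6, but 0 with DESeq2 (82 at an unadjusted p under 0.05), and 2 without the 9 month library and 15 without the 21 month library. The causes were not tested. Depth limits U6 and the 23 n-R5s rows with 1 to 19 reads, which were under the minimum for a call.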
